A study of Mus musculus with 6 samples.

Results

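The 9 transcription factor genes described here are those of the eye field and optic vesicle (Rax, Lhx2, Six6, Otx1, Otx2 and Mitf) and of early neurogenesis (Neurog2, Neurod1 and Isl1). They were taken by name, with every probe whose symbol in the platform annotation, or whose older name of the same Entrez gene, was one of the 9. This gave 13 probes of the 45281 on the array, and 9 genes of 19057 with a named probe. The tissue came from E10.5 mouse embryos of 2 genotypes on a mixed FVB;129 background. DCKO embryos were homozygous for floxed alleles of both CBP (Crebbp) and p300 (Ep300), which encode related histone acetyltransferases, and carried the Pax6-Cre transgene, in which a lens enhancer of Pax6 and the P0 promoter drive Cre in the head surface ectoderm and its derivatives. WT embryos had the same floxed alleles without Cre and are labelled wild type. Pax6-Cre was used as 1 transgenic line, and by the article a reporter of its activity also marked scattered cells of the retina at a later stage. The labels name the tissue surface ectoderm in DCKO and lens placode in WT, and both were cut by laser from eosin-stained frozen sections.

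RNA was amplified, labelled and hybridised to 6 Illumina bead arrays on 1 chip, 3 per genotype. By the labels, RNA from 3 embryos of a genotype was combined and amplified in triplicate, whereas the article speaks of biological replicates. Where arrays come from 1 pool, their spread is technical, and a p-value covers no more than that. Each array detected 18724 to 19551 probes in DCKO and 18081 to 19769 in WT at a detection p under 0.05, that is, above the array's negative control probes. Of the targeted genes, Ep300 had 1 of 4 tested probes lower in DCKO by the test below (undetected on all DCKO arrays and at least 2.86-fold lower by the bound described below, limma adjusted p = 0.0158) and Crebbp had 0 of 3, and the position of these probes relative to the floxed exons is not known here. Lens markers such as the crystallin gene Crybb3 were present in WT, and all 8 tested ones were lower in DCKO. Surface ectoderm markers, such as the keratin gene Krt8, were detected in both genotypes.

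The vertebrate eye starts as a single eye field in the anterior neural plate, in which Rax, Six3, Six6, Lhx2 and Otx2 act together. The eye field pushes out as the optic vesicle, which touches the surface ectoderm from which the lens placode forms. Within the vesicle, Mitf marks the future pigment epithelium and the OTX proteins work with MITF there. Proneural basic helix-loop-helix factors such as neurogenin 2 and NeuroD1 start neuronal differentiation in the retina, in the brain and in the neurogenic cranial placodes, and the LIM homeodomain factor ISL1 marks several classes of early neuron and also parts of the surface ectoderm and mesoderm. In bulk tissue, fewer cells of a type and less RNA per cell cannot be told apart.

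Levels are given in 2 ways. The first is the bead intensity as deposited, with no background subtraction and no normalization, for which the dimmest detected probe of an array stood at 202 to 212 in DCKO and at 208 to 250 in WT. The second is a normalized log2 level, from which fold changes (DCKO minus WT, on the log2 scale) were fitted with limma. A probe was tested when it was detected on at least 3 of the 6 arrays, and 7 of the 13 probes, standing for 6 of the 9 genes, met this. All 19552 tested probes were fitted together, and a call means an adjusted p (Benjamini-Hochberg) under 0.05. A probe that only 1 genotype detects can pass such a filter only if the genotypes differ, so the number of tested probes that differ is no support in itself. Each probe was read from 21 to 67 beads per array.

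**Figure D1:**
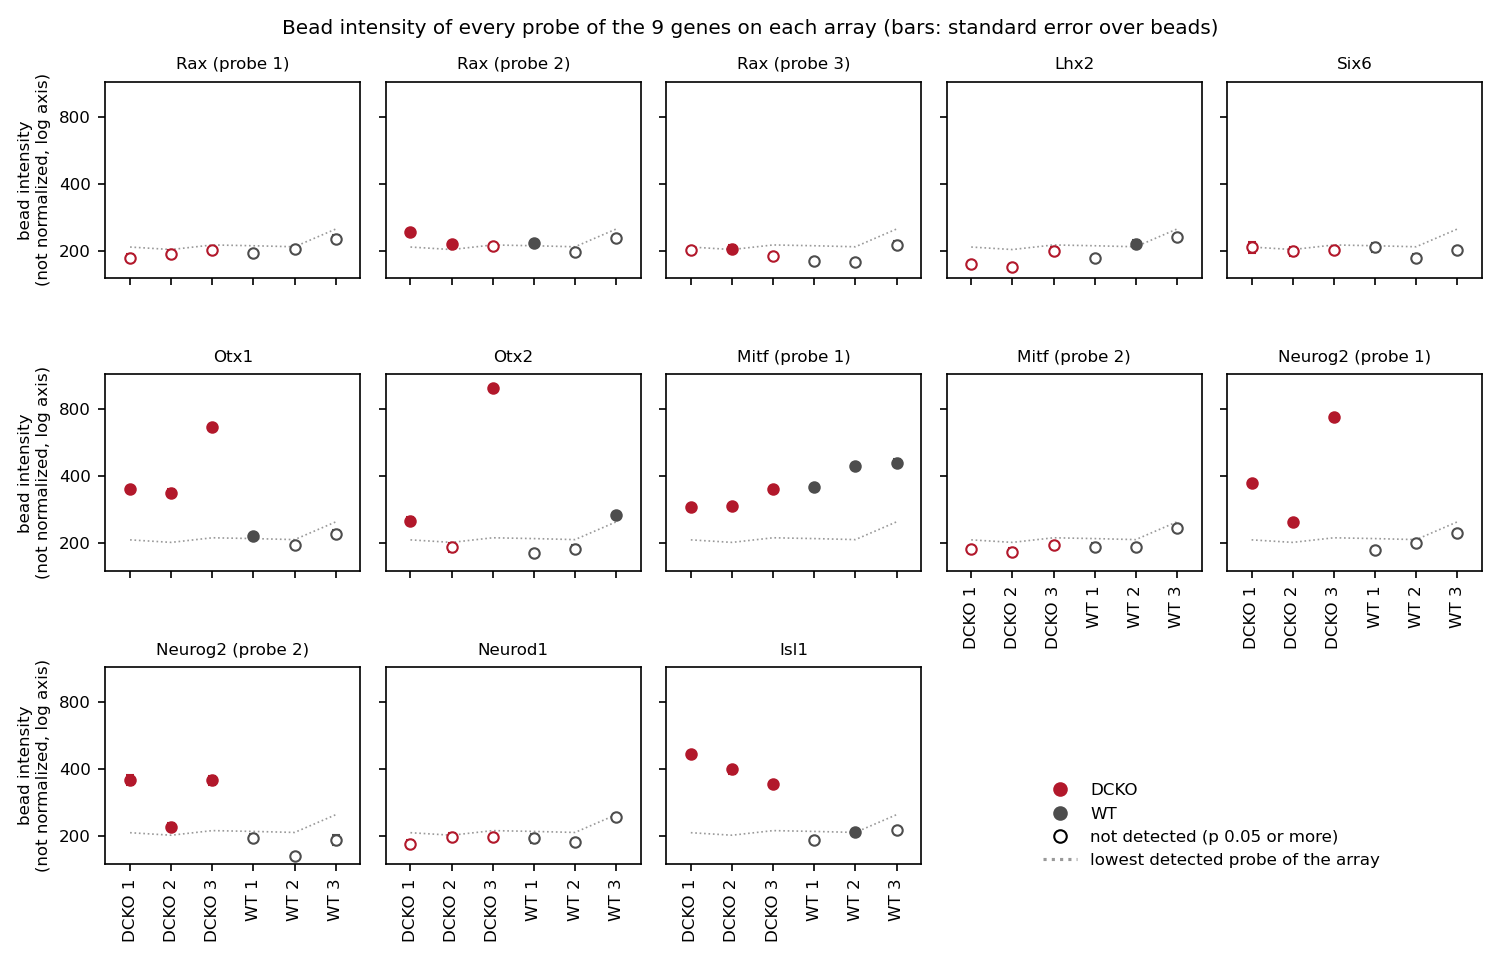
Bead intensity (log axis, as deposited) of all 13 probes of the 9 genes on 3 DCKO arrays (red) and 3 WT arrays (grey); open points were not detected, bars are standard errors over beads, and the dotted line marks the lowest detected probe of each array. Otx1, both Neurog2 probes and Isl1 stand above that line on every DCKO array, Otx2 stands far above it on DCKO 3 alone, and Lhx2, Six6 and Neurod1 lie near it on all 6 arrays.

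Rax, Lhx2 and Six6, which define the eye field and optic vesicle, had little or no signal in either genotype. Lhx2, a LIM homeodomain factor that the optic vesicle needs to advance to the cup stage, was detected on 0 DCKO arrays and on 1 WT array, WT 2. Its log2 levels were 4.74, 4.73 and 5.16 in DCKO, against 4.86, 5.58 and 5.09 in WT. Six6, a homeobox gene of the ventral optic vesicle and later the retina, was not detected on any array, at 5.37, 5.36 and 5.18 in DCKO and 5.29, 4.92 and 4.72 in WT. The values of both genes overlapped between genotypes, and neither was tested.

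Rax, the homeobox gene that starts eye field formation, had 3 probes, of which probe 1 was detected on no array and probe 3 on DCKO 2 alone. Probe 2, the only tested one, had intensities of 242, 214 and 210 in DCKO, against 217, 197 and 229 in WT. Its log2 levels were 6.03, 5.86 and 5.40 in DCKO, against 5.51, 5.16 and 5.08 in WT. DCKO 3, the lowest of the DCKO arrays, lay below WT 1, so the genotypes overlapped. The log2 fold change of probe 2 was 0.51 ± 0.27 (SE), with a 95% confidence interval of -0.12 to 1.15 and a limma adjusted p of 0.341. Probe 2 was detected on DCKO 1, DCKO 2 and WT 1.

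Otx1 rose in DCKO. Otx1 (Entrez gene 18423, GRCm38.p6 chr11:21994764-22001651) encodes an orthodenticle-type homeodomain factor of the forebrain, midbrain and eye region and of sensory placodes such as the inner ear. Its intensities were 352, 337 and 669 in DCKO, against 217, 196 and 221 in WT. The probe was detected on all 3 DCKO arrays and on WT 1 alone. Normalized log2 levels were 7.27, 7.57 and 8.70 in DCKO, against 5.51, 5.13 and 4.96 in WT. The lowest DCKO array stood above the highest WT array, and DCKO 3 was the brightest of the 3 by 1.13 on the log2 scale. Otx1 averaged 7.85 ± 0.75 in DCKO and 5.20 ± 0.28 in WT (SD, n = 3 each), a log2 fold change of 2.65 ± 0.41 (SE, 95% confidence interval 1.67 to 3.63) with a limma adjusted p of 0.0218. Since WT was at or near background, the fitted change depends on how background is treated, here and for Neurog2 and Isl1 too, and a bound is given beside it. Otx1 was at least 5.15-fold higher in DCKO, when each WT array is set at the higher of its own value and the level of its dimmest detected probe. Left out in turn, each of the WT arrays ended the call, with limma adjusted p-values of 0.0701 without WT 1, 0.0895 without WT 2 and 0.094 without WT 3, while Otx1 passed whichever DCKO array was left out. With 5 arrays fewer probes passed in all, for example 59 higher ones without WT 3 against 346 with all 6 arrays.

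Otx2 was bright on a single array. Otx2 (Entrez gene 18424, GRCm38.p6 chr14:48656781-48667644), the paralogue of Otx1, acts in the anterior neural plate, in the optic vesicle and pigment epithelium, and in anterior head ectoderm. Its intensities were 252, 192 and 995 in DCKO, against 181, 189 and 269 in WT, and the probe was detected on DCKO 1, DCKO 3 and WT 3. The corresponding log2 levels were 6.20, 5.17 and 9.44 in DCKO, against 4.79, 5.01 and 6.06 in WT. DCKO 2 lay below WT 3, so the genotypes overlapped. The log2 fold change was 1.65 ± 1.06 (SE), with a 95% confidence interval of -0.90 to 4.20 and a limma adjusted p of 0.444. Without DCKO 3 it was 0.40 (limma adjusted p = 0.722). DCKO 3 exceeded the next array by 3.25 on the log2 scale, and among the 19552 tested probes 1, Otx2 itself, had DCKO 3 on top by so wide a gap. This gap was looked at after the values had been seen.

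The bead reading of Otx2 on DCKO 3 was tight. It came from 40 beads, with a standard error of 27.5 on the intensity of 995. This error covers the spread of beads within 1 array only. DCKO 3 was the brightest array for Otx1, Otx2 and Neurog2 probe 1, whereas it was the lowest DCKO array for Isl1 and for Rax probe 2. Among all 19552 tested probes, DCKO 3 was the brightest array for 19.2%. Of other eye field genes, Six3, which encodes a sine oculis-type homeodomain factor of the eye field and the lens ectoderm, stood at log2 levels of 7.93, 8.37 and 9.37 in DCKO, against 8.71, 8.81 and 8.65 in WT, with DCKO 3 on top and limma adjusted p = 0.857. Nr2e1 (Tlx), a nuclear receptor of neural progenitors and the retina, was detected on DCKO 3 alone, at 5.13, 4.79 and 6.73 in DCKO and 4.70, 4.57 and 4.64 in WT. For other regulators of the optic vesicle and retina the order of the DCKO arrays varied. DCKO 3 was the lowest DCKO array for Hes1 (log2 level 5.71), Fgf15 (5.49) and Sfrp2 (13.65). The gaps were small for Fgf15, at 5.62 on DCKO 1, and for Sfrp2, at 13.88 on DCKO 1 and 13.86 on DCKO 2. Pax2 was brightest on DCKO 2, at a log2 level of 6.697, against 5.138 on DCKO 3 and 4.899 on DCKO 1. Six3, Nr2e1 and these genes were named after their values had been seen, and their order over the arrays was not tested. Rax, Lhx2 and Six6 were not detected on DCKO 3 by any probe. Where the 3 DCKO arrays come from 1 pool, as by the labels, they share the same tissue, and a gap between them is technical. Whether they came from separate tissue instead, and whether that of DCKO 3 differed, was not tested.

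Mitf was the 1 gene of the 9 whose DCKO values all lay below its WT values, but it did not pass the test. Mitf (Entrez gene 17342, GRCm38.p6 chr6:97807002-98021360) encodes the basic helix-loop-helix leucine zipper factor that directs melanocytes and the retinal pigment epithelium. Probe 1 had intensities of 291, 294 and 352 in DCKO, against 357, 446 and 462 in WT, and was detected on all 6 arrays. Normalized log2 levels were 6.72, 7.18 and 7.26 in DCKO, against 7.58, 8.27 and 8.19 in WT. Probe 1 averaged 7.05 ± 0.29 in DCKO and 8.01 ± 0.38 in WT (SD, n = 3 each), a log2 fold change of -0.96 ± 0.29 (SE, 95% confidence interval -1.65 to -0.26), with an unadjusted p of 0.0146 and a limma adjusted p of 0.128. Unadjusted p-values under 0.05 were found for 20.6% of all tested probes. Probe 2, designed on another transcript record of Mitf, was detected on no array, at 4.96 to 5.11 in DCKO and 5.01 to 5.20 in WT. The 2 probes of Mitf thus differ in whether the gene was detected.

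Most other genes of pigment cells gave little signal. Of 12 enzymes, channels and receptors of pigment cells, 6 were undetected on all 6 arrays, among them the tyrosinase gene Tyr, Tyrp1 and the pigment epithelium isomerase gene Rpe65. Only 2 were tested, and both were lower in DCKO. Kit, the receptor of melanocyte precursors, was at log2 levels of 5.14, 5.22 and 4.97 in DCKO, against 7.04, 7.28 and 7.07 in WT, at least 3.26-fold lower (limma adjusted p = 0.00606). Trpm1, a channel gene of melanocytes and retina, was at 5.22, 5.13 and 5.05 in DCKO, against 6.33, 6.24 and 7.01 in WT, at least 2.15-fold lower (limma adjusted p = 0.044). Both were undetected on every DCKO array and detected on every WT array. They met the filter through WT, so their number is no support in itself. Trpm1 lost its call whichever array was left out (limma adjusted p = 0.0855 to 0.124), and Kit kept it each time. Of all genes tested, 2.78% were called lower by their brightest probe.

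Neurog2 rose in DCKO by the dimmer of its 2 probes, and the brighter one fell just short of the threshold. Neurog2 (Entrez gene 11924, GRCm38.p6 chr3:127632733-127635636) encodes neurogenin 2, a proneural factor of the central nervous system, the retina and the epibranchial placodes. Both probes were detected on all 3 DCKO arrays and on no WT array. Probe 1 had intensities of 373, 251 and 740 in DCKO, against 187, 201 and 222 in WT. Probe 2 had 359, 221 and 357 in DCKO, against 197, 164 and 193 in WT. By both probes DCKO 2 was the lowest of the DCKO arrays, while DCKO 3 led by probe 1 alone. On the log2 scale probe 1 stood at 7.42, 6.62 and 8.90 in DCKO, against 4.90, 5.24 and 4.98 in WT. Probe 2 stood at 7.32, 6.03 and 7.30 in DCKO, against 5.07, 4.63 and 4.63 in WT. Neither probe overlapped between the genotypes.

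The log2 fold change of Neurog2 was 2.61 ± 0.56 (SE, 95% confidence interval 1.27 to 3.95) by probe 1, with a limma adjusted p of 0.0541 and a level at least 4.63-fold higher in DCKO. By probe 2 it was 2.11 ± 0.40 (SE, 95% confidence interval 1.14 to 3.08), with a limma adjusted p of 0.0416, and the level was at least 2.73-fold higher in DCKO. The mean of both probes passed at a limma adjusted p of 0.029. The intervals of the 2 probes overlap over most of their length. Without DCKO 2, both probes passed (limma adjusted p = 0.0387 for probe 1 and 0.0176 for probe 2). Probe 1 also passed without DCKO 3 (0.0462). Probe 2 lost its call when any array other than DCKO 2 was left out, at limma adjusted p-values of 0.0928 to 0.143.

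Neurod1, which encodes a proneural factor that acts downstream of the neurogenins in mouse sensory placodes and elsewhere, was not detected on any array. Its log2 levels were 4.91, 5.33 and 5.12 in DCKO, against 5.06, 4.97 and 5.41 in WT, so the genotypes overlapped. It was not tested.

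Isl1 rose in DCKO and had the smallest adjusted p of the 6 tested genes. Isl1 (Entrez gene 16392, GRCm38.p6 chr13:116298270-116309688) encodes a LIM homeodomain factor of early retinal ganglion cells, motor and sensory neurons, and heart progenitors. Its intensities were 469, 399 and 343 in DCKO, against 193, 210 and 213 in WT, and the probe was detected on all 3 DCKO arrays and on WT 2 alone. On the log2 scale it stood at 7.973, 8.014 and 7.194 in DCKO, against 5.002, 5.461 and 4.849 in WT. The genotypes were well apart, with DCKO 3 the lowest of the DCKO arrays. Isl1 averaged 7.73 ± 0.46 in DCKO and 5.10 ± 0.32 in WT (SD, n = 3 each). The log2 fold change was 2.62 ± 0.32 (SE, 95% confidence interval 1.86 to 3.39), with a limma adjusted p of 0.00962, and Isl1 was at least 4.85-fold higher in DCKO. The call was lost without WT 1 (limma adjusted p = 0.0541) or without WT 3 (0.0548) and held without each of the other 4 arrays.

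Since Isl1 and Neurog2 moved the same way, the 250 bases before their start sites are printed from RefSeq (GRCm38.p6), read 5′ to 3′ on the strand of the gene. The window of Isl1 is chr13:116309689-116309938 on the minus strand, and that of Neurog2 is chr3:127632886-127633135 on the plus strand. The gene record of Neurog2 given above begins before this window, which precedes the start used in the promoter table. Capitals mark matches, on either strand, to the E-box bound by proneural factors (CANNTG) or the bicoid-type site bound by OTX proteins (TAATCC). A core of LIM homeodomain sites (TAATTA) was searched too.
Isl1: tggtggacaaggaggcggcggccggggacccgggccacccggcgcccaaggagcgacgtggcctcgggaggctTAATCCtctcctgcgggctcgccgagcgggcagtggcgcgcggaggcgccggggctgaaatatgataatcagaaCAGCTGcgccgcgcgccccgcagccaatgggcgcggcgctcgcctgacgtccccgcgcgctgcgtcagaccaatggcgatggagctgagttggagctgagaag
Neurog2: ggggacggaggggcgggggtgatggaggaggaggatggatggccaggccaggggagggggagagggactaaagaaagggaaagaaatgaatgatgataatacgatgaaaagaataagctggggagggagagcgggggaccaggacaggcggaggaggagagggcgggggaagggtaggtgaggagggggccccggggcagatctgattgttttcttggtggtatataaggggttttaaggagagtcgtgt
Isl1 holds 1 E-box at -103 to -98 from the start, and 1 bicoid-type site at -177 to -172. Neurog2 holds neither. Of all 32851 such windows in the mouse table, 66.2% hold an E-box and 6.25% hold a bicoid-type site. The core of LIM homeodomain sites is in neither window and in 4.84% of all. No overlap between motifs occurred in them, and a match describes the letters only. The GC content was 71.2% for Isl1 and 58% for Neurog2, against a median of 52.4% over all windows.

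**Figure D2:**
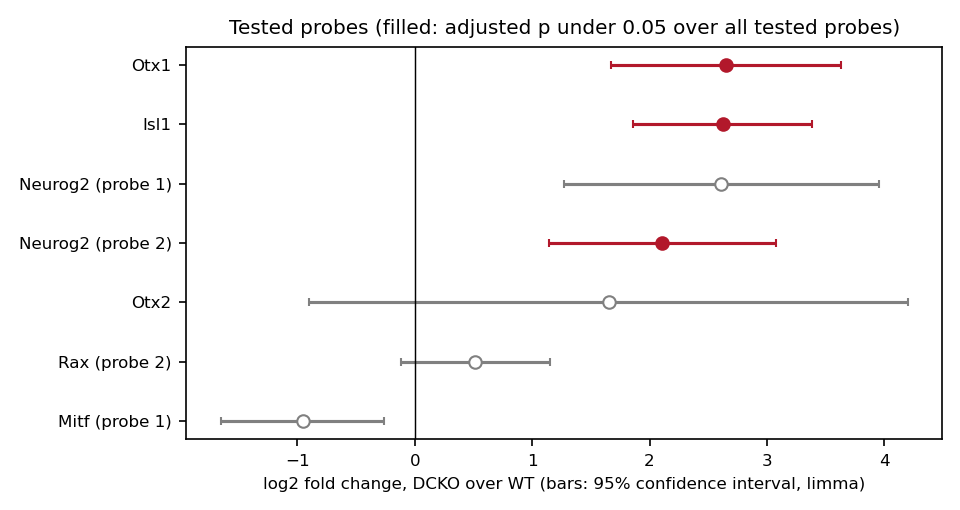
Log2 fold change (DCKO over WT) of the 7 tested probes of the 9 genes, with 95% confidence intervals from limma; filled points passed at an adjusted p under 0.05 over all tested probes. Otx1, Isl1 and Neurog2 probe 2 passed on the positive side, and the intervals of Otx2 and Rax probe 2 include 0.

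Side by side, 3 of the 7 tested probes were called, all of them higher in DCKO, from Otx1, Isl1 and Neurog2. Among all tested probes 4.58% were called, 1.77% as higher and 2.81% as lower. The DCKO values lay wholly above the WT values for 4 probes (Otx1, both of Neurog2, and Isl1), as they did for 13% of all tested probes, and wholly below them for 1 (Mitf probe 1), as for 14.4% of all. Otx2 and Rax probe 2 overlapped. The order of the DCKO arrays differed between Otx1, Neurog2 and Isl1. Without the filter on detection all 13 probes were tested and 2 were called, Otx1 and Isl1 (limma adjusted p = 0.0496 and 0.0203), while Neurog2 probe 2 had a limma adjusted p of 0.081.

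**Figure D3:**
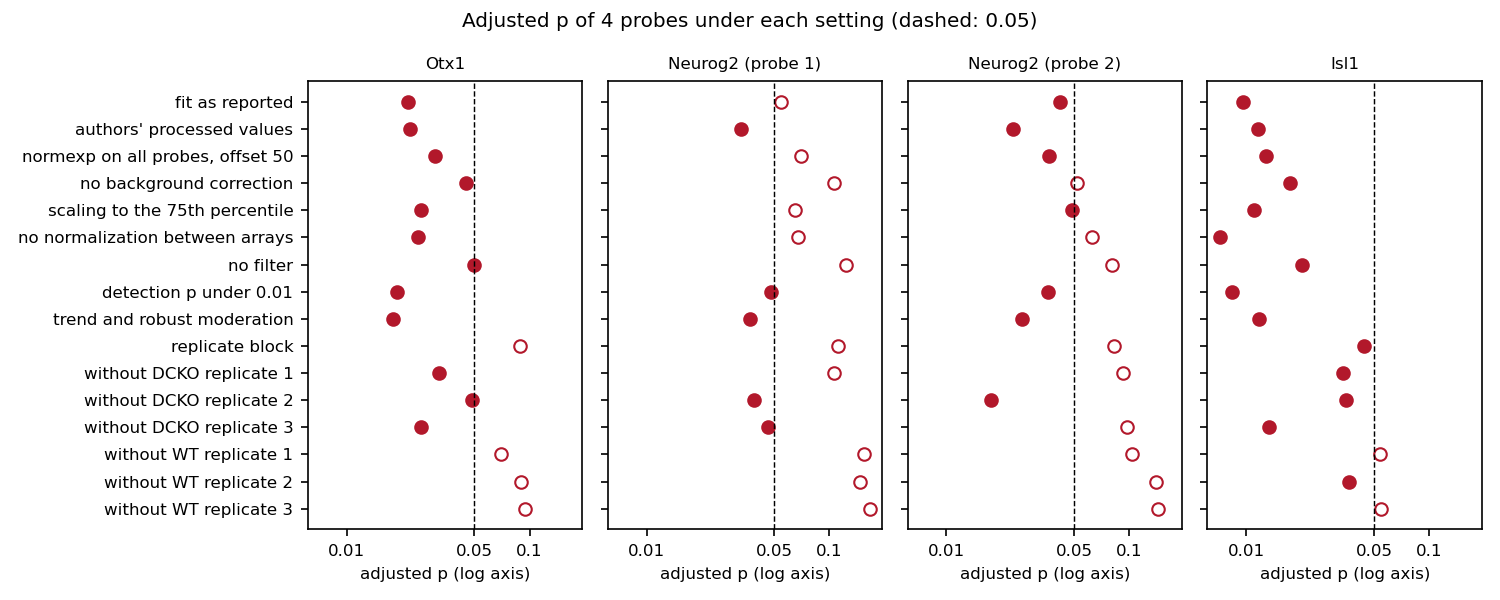
Limma adjusted p (log axis; dashed line, 0.05) of Otx1, both Neurog2 probes and Isl1 under the fit as reported, 9 other settings and each array left out in turn; filled points passed. Isl1 passed in all 9 other settings, Otx1 in 8, Neurog2 probe 2 in 5 and Neurog2 probe 1 in 3, and leaving out a WT array ended the call of Otx1 and of Neurog2 probe 2 each time.

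The rise of Otx1, Neurog2 and Isl1 was set beside other genes of the same tissues. Of 18 other regulators of the optic vesicle, retina and pigment epithelium with a named probe, 8 were tested, 2 were higher, 0 were lower and 6 did not pass. The median log2 fold change of the 8 was 0.11, against 0.01 over all 10123 tested genes, of which 2.1% were called higher. Aldh1a3, a retinoic acid synthesising enzyme of ventral optic vesicle and head ectoderm, was at log2 levels of 11.76, 11.51 and 11.57 in DCKO, against 10.25, 10.26 and 10.27 in WT (limma adjusted p = 0.0204). Bmp4, a growth factor that the optic vesicle and the ectoderm both make, was at 9.28, 8.86 and 9.23 in DCKO, against 5.17, 6.35 and 7.46 in WT, where 2 arrays detected it, and was at least 6.63-fold higher (limma adjusted p = 0.0455). Aldh1a3 lost its call when any 1 WT array was left out (limma adjusted p = 0.087 to 0.093), and Bmp4 when any 1 array other than WT 3 was (0.0819 to 0.142). The optic vesicle homeobox genes Vax2 and Vsx1, the dorsal retinal gene Tbx5, and Zic2 and Sox1 were undetected on all 6 arrays. Of the 8 tested, 5 had a positive log2 fold change and 3 a negative one. The summed level of the 18 was 17717 to 19977 in DCKO, against 25092 to 29485 in WT. Sfrp2, the brightest, did not pass (limma adjusted p = 0.0956). It made up 12847.5 to 15074 of the sum in DCKO, against 22735 to 27134 in WT. The other 17 genes summed to 4403 to 4902 in DCKO, against 2276 to 2358 in WT. They include the 2 called genes, Aldh1a3 and Bmp4, and Aldh1a3 was the largest part of this sum on each array. The higher sum in DCKO therefore does not describe the 17 genes in general.

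Other neurogenic genes had no call to set beside Neurog2 and Isl1. Of 21 other proneural and neurogenic regulators with a named probe, 12 were undetected on all 6 arrays, including Neurog1, Atoh1, the sensory neuron gene Pou4f1, the ISL1 paralogue gene Isl2 and the Notch ligand gene Dll1. Of the 5 that were tested, 0 passed by limma, and 0 had an unadjusted p under 0.05. Their median log2 fold change was -0.06. Insm1, a zinc finger factor of newborn neurons, was bright on DCKO 2 alone, at log2 levels of 4.70, 8.14 and 4.69 in DCKO and 5.96, 4.72 and 4.93 in WT, and DCKO 2 was the lowest DCKO array for both Neurog2 probes.

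Most markers of differentiated neurons were at or near background too. Of 17 with a named probe, 7 were undetected on all 6 arrays, among them Stmn2, Snap25 and the neurofilament gene Nefl. Of the 3 tested, Elavl3, Map2 and Dpysl3, 0 passed by limma and 0 had an unadjusted p under 0.05, and all 3 had a negative log2 fold change, with a median of -0.63. The neuronal tubulin gene Tubb3 was detected on DCKO 2 alone. Crmp1, which encodes a semaphorin signalling protein of neurons, was at log2 levels of 7.04, 5.41 and 6.67 in DCKO, against 4.97, 4.97 and 4.69 in WT. It was detected on DCKO 1 and DCKO 3 only and was not tested. The summed linear level of the 17 genes was 747 to 1290 in DCKO, against 869 to 968 in WT. Dpysl3, the brightest, made up 70.5 to 598 of it in DCKO, against 84.1 to 262 in WT. The other 16 genes summed to 670 to 780 in DCKO, against 706 to 785 in WT.

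Neural progenitor markers had calls in the opposite direction to Otx1, Neurog2 and Isl1. Of 12 with a named probe, 7 were tested, 0 were higher and 3 were lower in DCKO, with a median log2 fold change of -0.90. The called ones were Nes, an intermediate filament gene of neural progenitors (at least 2.39-fold lower, limma adjusted p = 0.0267), the zinc finger gene Zic1 (at least 3.73-fold lower, limma adjusted p = 0.044), and the N-cadherin gene Cdh2 (at least 9.09-fold lower, limma adjusted p = 0.00643). Nes was detected on 0 DCKO arrays and the other 2 on 1 each, while all 3 were detected on every WT array. They met the filter through WT, so their number is no support in itself. Over all tested genes, 2.78% were called lower by their brightest probe. Cdh2 is also made by the lens. Whether the WT levels of Nes and Zic1 came from neural cells or from the lens placode was not tested. Without 1 array at a time, the count was 1 to 2, Cdh2 passing each time. Nes lost its call whichever array was left out (limma adjusted p = 0.0617 to 0.0869), and Zic1 passed only without WT 1. The summed level of the 12 genes was 719 to 2454 in DCKO, against 2077 to 2231 in WT, with DCKO 3 the highest of the 6 arrays and DCKO 1 the lowest. On each array the largest single part of that sum was Msi1, an RNA-binding protein gene, at log2 levels of 8.01, 10.40 and 10.93 in DCKO and 10.21, 9.69 and 9.59 in WT, and the other 11 genes summed to 424 to 500.1 in DCKO, against 1046 to 1375 in WT. Sox1, Sox3 and Pax7, which define neural plate and dorsal neural tube, were undetected on all 6 arrays.

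**Figure D4:**
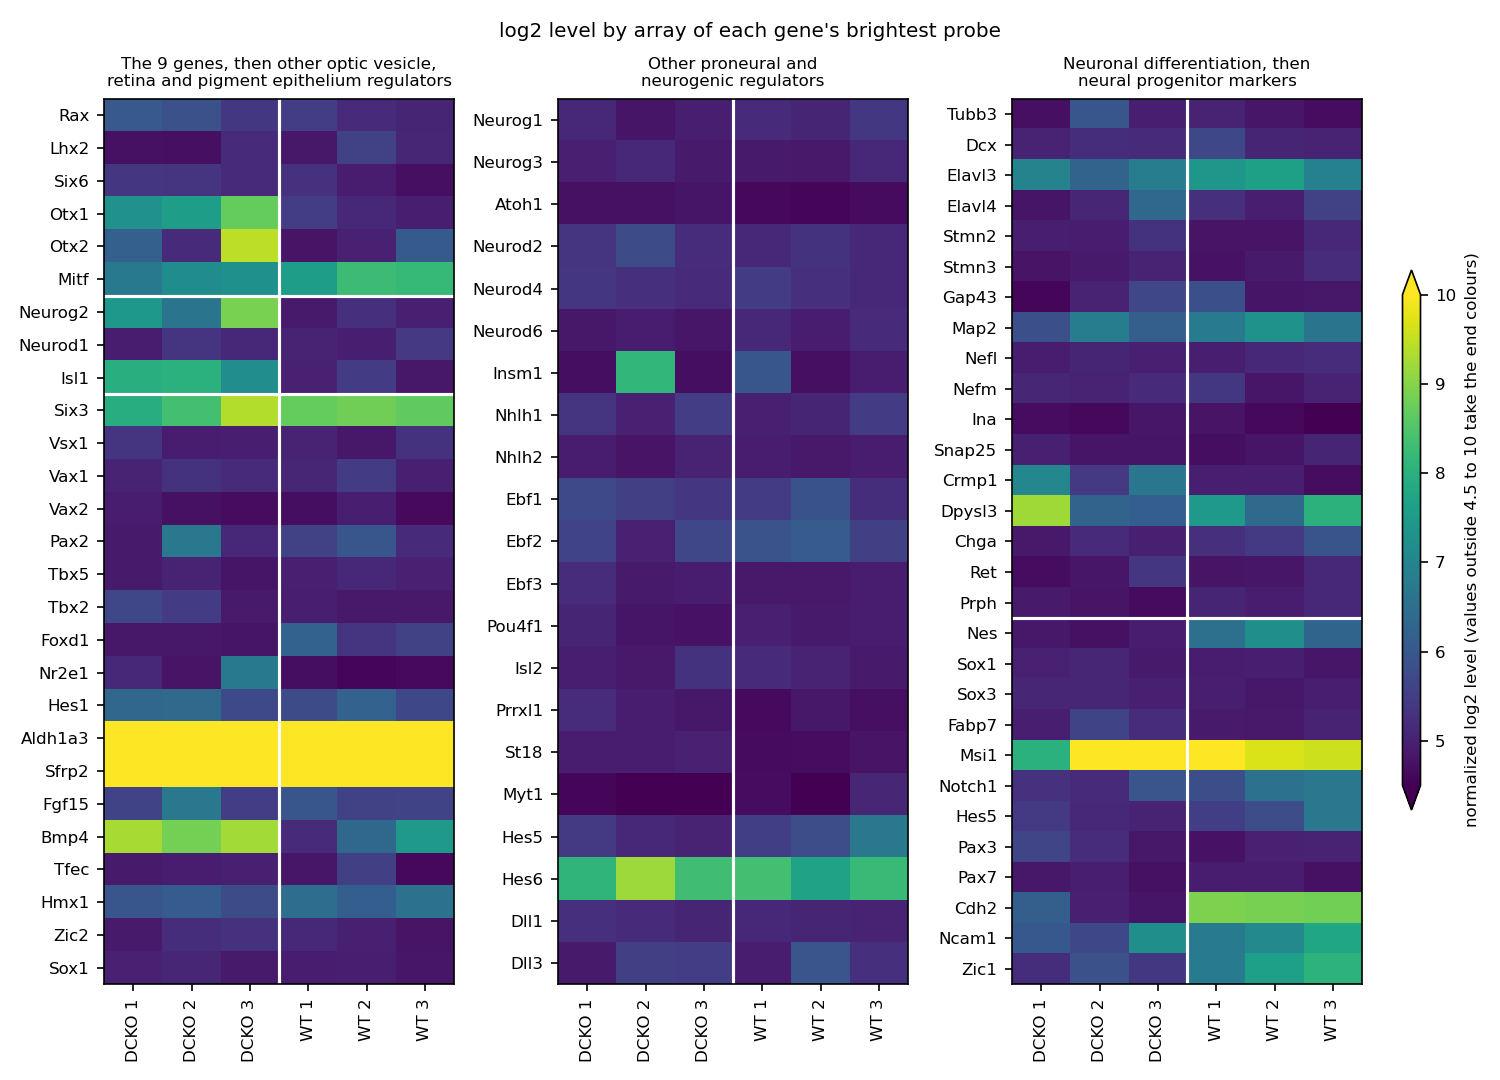
Normalized log2 level (colour, with values beyond the scale at the end colours) of each gene's brightest probe on 3 DCKO arrays (left of each panel) and 3 WT arrays, for the 9 genes, other optic vesicle, retina and pigment epithelium regulators, other proneural regulators, and neuronal and neural progenitor markers. Otx1, Neurog2 and Isl1 are brighter on all DCKO arrays, Nes, Cdh2 and Zic1 on all WT arrays, and most proneural regulators stay dark on all 6.

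Genes of the head ectoderm were among those higher in DCKO. Of 16 regulators of cranial placode ectoderm with a named probe, 7 were tested, 3 were higher and 0 were lower, with a median log2 fold change of 1.07, or 0.96 with genes near background at their bound. These were the homeobox genes Dlx5 (at least 9.36-fold higher, limma adjusted p = 0.0014), Dlx3 (8.23-fold, limma adjusted p = 0.00723) and Six4 (at least 1.94-fold, limma adjusted p = 0.0447). Dlx5 and Six4 were detected on 1 WT array each. Dlx5 and Dlx3 passed whichever array was left out, whereas Six4 lost its call each time (limma adjusted p = 0.0874 to 0.153). Of 12 surface ectoderm and epidermis markers, 11 were tested, 6 were higher and 0 were lower, with a median of 1.18, or 1.07 with genes near background at their bound. The 6 were the ectodermal transcription factor genes Trp63 and Grhl2, the keratin genes Krt8 and Krt7, the splicing factor gene Esrp1 and the claudin gene Cldn6, and 3 to 5 passed with 1 array left out. Trp63 and Krt7, like Dlx5 and Six4, were detected on 3 DCKO arrays and 1 WT array. They met the filter through DCKO, so these counts are no support in themselves. Over all tested genes, 2.1% were called higher by their brightest probe, and the median log2 fold change was 0.01. The summed level of all 12 markers was 14738 to 17357 in DCKO, against 9384 to 10243 in WT. The E-cadherin gene Cdh1, which did not pass, made up 2900 to 4352 of it in DCKO, against 5624 to 6594 in WT, and the other 11 genes summed to 11647 to 13004 in DCKO, against 3649 to 3760 in WT.

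Markers of other tissues in reach of the laser differed as well. The summed level of 8 lens markers was 678 to 788 in DCKO, against 17426 to 18807 in WT. Of 4 tested markers of periocular mesenchyme, 1 was higher in DCKO (Prrx1) and 1 lower (Pdgfra), and the summed level of the 9 with a named probe was 846 to 1294 in DCKO, against 4552 to 5020 in WT. That order comes from Pdgfra alone: the other 8 summed to 605 to 853 in DCKO, against 356 to 519 in WT. Of 6 tested macrophage markers, 4 were lower in DCKO (Aif1, Mpeg1, Tyrobp and Ctss). All 6 were detected on every WT array and on at most 1 DCKO array. They met the filter through WT, so this count is no support in itself. Prrx1, detected on 3 DCKO arrays and 0 WT arrays, met it through DCKO. Over all tested genes, 2.78% were called lower and 2.1% higher by their brightest probe. Of 4 tested erythroid markers, 1 was lower (Hba-a1), and of 3 tested endothelial ones 0 passed by limma and 1 was lower at an unadjusted p under 0.05. Without 1 array at a time Prrx1 lost its call each time (limma adjusted p = 0.0627 to 0.158), and Tyrobp and Hba-a1 lost theirs whichever WT array was left out (0.0517 to 0.0701 and 0.0842 to 0.0991). The tissues compared thus differed in the markers of several cell types besides the genotype, and the part of these differences in the levels of Otx1, Neurog2 and Isl1 was not tested.

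Each of the 3 called genes had a small set of genes with the closest pattern, measured as the root mean square distance between log2 levels centred on their own mean over the 6 arrays, among 10123 tested genes. Nearest to Otx1 were Fut4, Dnaaf3, Irx3, Mal2 and Galnt3, at distances of 0.255 to 0.351. Irx3, a homeobox gene of neural tube and ectoderm, stood at log2 levels of 6.62, 6.89 and 8.09 in DCKO, against 4.83, 4.72 and 5.15 in WT. Nearest to Isl1 were Srpr, Cdcp1, Tnk1, Eci2 and Fam102a, at 0.162 to 0.329. Nearest to Neurog2 by its brighter probe were Kcne1l, Epha1, Akr1b10, Mal2 and 4930599N23Rik, at 0.309 to 0.42. Mal2, an epithelial membrane trafficking gene, is in the sets of both Otx1 and Neurog2. With 6 arrays shared by every gene, these distances describe the likeness of 6 values. A shared call or a shared brightest array follows from that choice, and any gene has 5 nearest ones.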

How the data were processed

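Per array, the deposited values are each probe's mean bead intensity, neither background-subtracted nor normalized, its detection p-value against the negative controls, and the number of beads with their standard error, as the authors exported them from GenomeStudio, whose version is not given in the sources read here. A second deposited table holds processed intensities, of which 25.3% are below 0 and for which the article names cubic spline normalization. On the log2 scale, with 16 as the floor, these correlated at 0.995 to 0.996 with the log2 values of the same arrays computed here. The computed values were made from the deposited intensities by neqc (limma 3.58.1, R 4.3.3): normexp background from detection p-values, an offset of 16, then quantile normalization. Probes detected (p under 0.05) on 3 or more arrays, 19552 of 45281, entered lmFit and eBayes without a block, with Benjamini-Hochberg adjustment. GenomeStudio's own test was not run. The platform annotation gives 1 gene symbol to 34885 probes, several to 18 and none to 10378. Entrez identifiers linked symbols to a RefSeq table of GRCm38.p6, the source of positions. Promoter windows of 7 of the 9 genes were searched, and those of Otx1 and Rax were not used here. Gene lists are described by counts, medians and summed linear levels (2 to the power of the log2 level), with each gene at its brightest probe. List genes with no named probe were not analysed here.

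The 9 genes, the lists and the alternatives were chosen with earlier results of these data known. The text names every member, the called genes of each list (at most 6), defining markers undetected on every array, the 5 nearest genes of each called member, and the targeted genes. Six3, Nr2e1, Hes1, Fgf15, Pax2, Sfrp2, Insm1, Tubb3, Crmp1, Msi1, Elavl3, Map2 and Dpysl3 were named after their values had been seen. As alternatives, the fit was repeated with the authors' processed values, with normexp at an offset of 50, without background correction, with arrays scaled to the 75th percentile or not normalized, with no filter or a detection p under 0.01, with trend and robust moderation, with a replicate block, with 5 arrays, with the mean of a gene's probes or each other probe, and, for counts over all probes, at an adjusted p under 0.01. Precision is limited by the number of arrays and, where the arrays of a genotype come from 1 pool, by that pool. The rates below then cover technical spread only, as the p-values do. In 5 simulations of the DCKO against WT design, with 200 of the 19552 probes changed, limma found 1.49% of the changes whose log2 size was 1, 38.5% of those of size 2 and 79.1% of those of size 4; false calls made up 4.15%.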

Additional observations from a re-analysis of the deposited data

How the results depend on the processing

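The count of member probes called higher, 3 of 7, was 2 to 4 under 8 of the 9 other settings, and 1 (Isl1) with a replicate block. With 1 array left out it was 0 to 4, at 0 without WT 1 or WT 3 and 1 without WT 2. No member probe was called lower under any of these. Over all probes, 549 were called lower and 346 higher. A replicate block gave 167 lower and 52 higher, an adjusted p under 0.01 gave 165 lower and 53 higher, and leaving out 1 array gave 170 to 398 lower and 59 to 222 higher. The share of higher among called probes was 38.7%, against 23.7% with the replicate block. The replicate numbers pair no samples by their labels, and deviations of same-numbered arrays correlated at only 0.0333, 0.0326 and 0.0104 over probes, although 6 of 6 arrays correlated best with their own number in the other genotype. No fold change of a tested member changed sign. Neurog2 probe 1 passed with the authors' processed values (limma adjusted p = 0.0328), a detection p under 0.01 (0.0478) and trend and robust moderation (0.037). No normalization between arrays moved the median log2 fold change of all probes to 0.12 and the share of higher calls to 46.7%. Detection limits Rax, Lhx2, Six6 and Neurod1, whose levels lay at or near background.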

Other observations

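Otx2, which passed no test, had a set of genes with a like pattern, looked for after its values had been seen. By the same distance over 6 arrays, the nearest of 10123 tested genes were Gsto1, Creb3, Cachd1, Fbxo42 and Map3k3, at 0.435 to 0.644. Creb3, a membrane-bound transcription factor gene, stood at log2 levels of 8.35, 7.56 and 10.45 in DCKO, against 6.87, 7.07 and 7.64 in WT. None of them is in the lists of optic vesicle or neural genes used here. Those lists hold few of the 10123 tested genes, so nothing is concluded from this. Among the 346 probes called higher in DCKO, DCKO 3 was the brightest of the 3 DCKO arrays for 28%, DCKO 1 for 39% and DCKO 2 for 32.9%.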
